A study of Mus musculus with 42 samples.

Results

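RECTAS was set against its DMSO vehicle in CT26, a mouse colon carcinoma line grown in culture, by sequencing of polyadenylated RNA. The comparison took the 3 libraries of CT26 cells exposed to RECTAS at 10 µM, in 0.1% DMSO, for 6 h and the 3 libraries of CT26 cells kept for 6 h in 0.1% DMSO alone, which are 6 of the 42 libraries of a series on 7 mouse cancer lines. Members were the 11938 genes, of 55401 in each file, with a mean of at least 1 TPM (a share of all transcripts, scaled to the same total in each library and corrected for gene length) over these 6 libraries. Cells of both groups grew in RPMI-1640 with fetal bovine serum and carried no engineered allele in the labels. Whether the 3 libraries of each treatment were separate cultures is not stated in the labels, and p-values therefore reflect only the spread between these samples, which may be technical. The series title names a search for neoepitopes that arise from splicing in treated tumour cells. The values analysed here are gene totals and hold no splice junctions.

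RECTAS, short for rectifier of aberrant splicing, is a small molecule that changes how some exons are spliced. In human cells it is described as acting on CDC2-like kinases (CLKs), which phosphorylate SR proteins, among them SRSF6. SR proteins bind exons and recruit the spliceosome, and many SR protein and CLK genes splice their own transcripts into forms that are degraded. Gene totals can therefore move when splicing moves, without a change in transcription. CT26 is a widely used syngeneic tumour model in BALB/c mice.

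The colon label was weakly reflected in epithelial markers. Only 2 of 15 epithelial markers reached 1 TPM over the 6 libraries, the intestinal keratin Krt20 at 585 TPM and the intestinal transcription factor Cdx2 at 6.91 TPM. The cadherin gene Cdh1 averaged 0.00333 TPM with RECTAS and 0 TPM with DMSO, and Epcam averaged 0.213 TPM with RECTAS and 0.277 TPM with DMSO. All 12 mesenchymal markers reached 1 TPM, with Vim at 4183 TPM with RECTAS and 4429 TPM with DMSO. Of the markers of other lineages, 1 of 8 T lymphoid, 2 of 9 myelomonocytic, 1 of 7 melanocyte and 0 of 5 endothelial markers reached 1 TPM, and none of them was called. Their summed level was 1.01 to 2.13 TPM with RECTAS and 1.73 to 2.66 TPM with DMSO for the T lymphoid list. The myelomonocytic list summed to 18.9 to 19.8 TPM with RECTAS and 18.3 to 20.02 TPM with DMSO, mostly Cd14. These sums overlapped between the groups, as did that of the mesenchymal list, at 10708 to 11143 TPM with RECTAS and 11059 to 11231 TPM with DMSO. The endothelial list summed to 0.13 to 0.50 TPM with RECTAS and 0.04 to 0.14 TPM with DMSO, also with overlap. The sums of the remaining 2 lists did not overlap. The epithelial list summed to 585.2 to 587.7 TPM with RECTAS and 593.8 to 603.7 TPM with DMSO, nearly all of it Krt20. The melanocyte list summed to 6.81 to 8.2 TPM with RECTAS and 5.45 to 6.63 TPM with DMSO, mostly Mitf, with the pigment genes Pmel at 0.25 TPM with RECTAS and 0.133 TPM with DMSO and Tyr at 0.00667 and 0.00333 TPM. The part of these markers in the results was not tested. In bulk RNA, fewer cells of a type and less RNA per cell cannot be told apart.

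Libraries of a group correlated at 0.989 to 0.991 across genes on log2(TPM + 1), and libraries of different groups at 0.985 to 0.990. The SD of the log2 difference between libraries was 0.274 to 0.308 within groups and 0.293 to 0.361 between them. The number of genes with at least 1 TPM was 11820 to 12005 per library. Sequencing depth cannot be read from TPM and is unknown. Differences moved with base composition across genes: among genes sorted into 4 equal groups, those with the lowest GC content had a median log2 difference of 0.10, and those with the highest had one of -0.02. The first RECTAS library stood highest in this respect, at 0.13 above the mean of the 6 libraries for the genes of lowest GC content, and the third DMSO library stood lowest, at -0.10. Differences moved with transcript length too: in the same kind of sorting, the median was -0.02 for the shortest genes and 0.08 for the longest. The part of base composition and length in the results below was not tested beyond a fit with the trend on GC content and length removed. That fit called more genes, 226 higher and 334 lower, among them 78 of the 87 higher and 148 of the 150 lower genes of the main fit.

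With RECTAS, 87 genes rose and 150 fell at an adjusted p under 0.05 (limma on log2(TPM + 1), Benjamini-Hochberg over all genes tested), which is 0.729% and 1.26% of the 11938 genes, or 1.99% together. The changes were small. The median size among called genes was 0.33 on the log2(TPM + 1) scale, where 26 rises and 24 falls reached 0.5, and the median difference of all genes was 0.02. At an unadjusted p under 0.05, 22.01% of all genes passed, and 57.8% of all genes had a difference above 0. For genes with low TPM such a difference is smaller than the log2 fold. The 3 RECTAS values lay above the 3 DMSO values for 15.0% of all genes and below them for 12.5%, and the groups did not overlap for any of the 237 called genes. Rising genes had a median GC content of 45.9% and falling genes of 51.4%, against 49.7% for all genes tested. Protein-coding genes made up 85.1% of the rises, 94.7% of the falls and 89.2% of all genes tested.

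The number of called genes depended on each library. Without the first, the second or the third RECTAS library, 15, 143 and 10 genes were called higher and 51, 107 and 20 lower. Without the first, the second or the third DMSO library, 11, 12 and 20 genes were called higher and 22, 15 and 40 lower. Of the 50 called genes that the naming rule took, 14 stayed called whichever 1 of the 6 libraries was left out: Gm24727, Gm49739, H2bc4, A930004D18Rik, H2bc21, Nprl3, Nupr1, Cwf19l1, Hacd1, Rsph3b, Alkbh3, Xkr5, Riox2 and Dnajc8. Each of the other 36 lost its call without at least 1 library. Rsph3a lost it without the second DMSO library alone, Ndufs3 without the first or second DMSO library, and Supt3 whichever DMSO library was left out. H2bc12, Uvssa, Tbc1d32, Srsf6, Luc7l, Gclc, Egr1, Hbegf, Atpsckmt and Mospd2 lost it whichever library was left out except the second of RECTAS. Aldh3a1, Id2, Gusb, Ccl25 and Gm20431 lost it whichever was left out except the second of RECTAS and the third of DMSO, and Cwc27 whichever was left out except the third of DMSO. Ddx46, Sdhaf4, Stxbp3 and BC002059 lost it without the third RECTAS library or any 1 DMSO library, and Cmc4 whichever was left out except the first of RECTAS. Gm28052 and 0610040B10Rik lost it without the first or the third RECTAS library or the first DMSO library. Without the second DMSO library, Gm28052 fell below the filter and was not tested. U2af2, Snrpa1, Jun, Dusp5, Id3, H1f2, Polr1b, Snai1 and Fam136a lost it whichever library was left out, and Mtrex without the third RECTAS library or the first or second DMSO library.

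**Figure D1:**
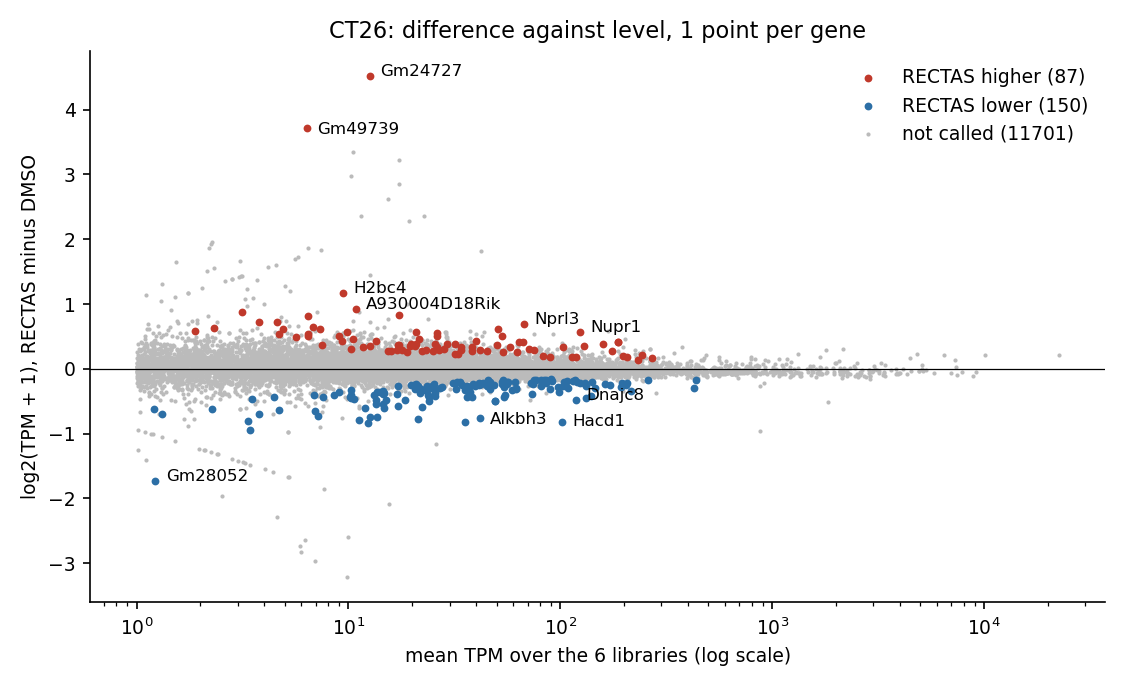
Difference between RECTAS and DMSO on log2(TPM + 1) (y axis) against the mean TPM over the 6 CT26 libraries (x axis, log scale), 1 point per gene. The 87 called rises (red) and 150 called falls (blue) lie mostly within 1 log2 unit of 0, and Gm24727 and Gm49739 stand apart at the top because their DMSO values are listed at 0.

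The H2B gene H2bc4 had the largest rise of any protein-coding gene, and 2 other H2B genes and 1 H1 gene rose with it. Core and linker histones package DNA. Transcripts of the replication-dependent histone genes normally end at a conserved stem-loop in place of a poly(A) tail, so that a library of polyadenylated RNA holds few of them, and they appear in it mainly when transcription runs past the stem-loop to a poly(A) site. Of 20 histone genes in the list, 10 passed the filter. Of these 10, 4 rose and 0 fell, beside 0.729% and 1.26% of all genes. Their median log2 difference was 0.12, against 0.02 for all genes. The list was chosen with earlier results of these data known. H1f0, which is in the list, is a replacement histone and not tied to replication.

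H2bc4, an H2B gene at chromosome 13, 23684199 to 23692908 (GRCm38, GENCODE M21, plus strand), had 15.1, 12.4 and 13.1 TPM in the 3 RECTAS libraries, against 5.00, 5.89 and 5.37 TPM in the 3 DMSO libraries. The groups did not overlap, and the lowest RECTAS value was more than double the highest DMSO value. The mean was 13.5 ± 1.43 TPM with RECTAS and 5.42 ± 0.447 TPM with DMSO (SD, n = 3 each), a ratio of 2.49 and a log2 difference of 1.17 ± 0.09 (SE; limma adjusted p = 0.00307). H2bc21, another H2B gene, had 4.22, 4.37 and 4.50 TPM with RECTAS, against 1.86, 1.83 and 2.09 TPM with DMSO. That is a log2 difference of 0.87 ± 0.08 (limma adjusted p = 0.00595), with no overlap. H2bc12 had 5.40, 4.14 and 5.30 TPM with RECTAS, against 2.66, 2.59 and 2.52 TPM with DMSO, a difference of 0.72 ± 0.10 (limma adjusted p = 0.0264). The linker histone gene H1f2 had 9.14, 8.43 and 8.23 TPM with RECTAS, against 6.32, 6.25 and 6.63 TPM with DMSO, a difference of 0.37 ± 0.07 (limma adjusted p = 0.0438).

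The other 6 histone genes tested did not pass, and they lay on both sides of 0. H2ac8 was at -0.39, H2ac19 at -0.23 and H2ac18 at -0.20, while H4c8 was at 0.15 and H2aw at 0.05, all with overlapping groups. H1f0 was at 0.09 without overlap (limma adjusted p = 0.15). Some H2B sequence is shared between copies: 33.5% of the 31-base words of H2bc4 and 75.3% of those of H2bc12 also occur in transcripts of other genes, against 2.82% for H2bc21, so how reads were divided between copies is uncertain for part of H2bc4 and most of H2bc12.

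The 3′ stem-loop sequences of the called histones are shown because they set apart the transcripts that normally lack a tail. The annotated transcripts (GENCODE M21) of 7 of the 10 tested histone genes hold a stem-loop, in capitals below with 5 flanking bases on each side. Those of H2bc4 and H2bc21, the largest rises, hold none, and neither does that of H1f0.
H2bc12 stem-loop: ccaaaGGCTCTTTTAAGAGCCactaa
H1f2 stem-loop: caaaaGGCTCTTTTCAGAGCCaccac
Among the 4 called genes, 2 held a stem-loop and 2 did not. The annotated transcript of H2bc12 ends 30 bases after its stem-loop, and that of H1f2 runs on for 840 bases.

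Promoters of 2 of the 4 called histone genes were in the RefSeq promoter table for GRCm38.p6. The promoter of H2bc12 (chr13:22035571-22035870, plus strand, from 250 bases before the start site to 50 after) is printed because H2B promoters are known for an octamer element, ATTTGCAT, which is in capitals.
H2bc12 promoter: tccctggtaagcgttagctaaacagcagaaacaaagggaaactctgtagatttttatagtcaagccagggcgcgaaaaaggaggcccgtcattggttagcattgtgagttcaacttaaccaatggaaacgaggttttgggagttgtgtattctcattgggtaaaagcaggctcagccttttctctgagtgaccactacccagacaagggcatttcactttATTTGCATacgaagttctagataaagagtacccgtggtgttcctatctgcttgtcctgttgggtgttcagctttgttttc
The octamer starts 30 bases before the start site, on the printed strand, and either strand was searched. It occurs in 1.74% of the 32851 promoters in the table. The shorter CCAAT element occurs in 37.4% of all promoters, in that of H2bc12 at -160, -132 and -96, and in that of H1f2 at -54. These matches describe the letters of the window and not a bound factor.

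Apart from the histones, the largest rises were a mixture of coding genes, noncoding RNAs and genes that share sequence with others. Gm24727, annotated as a small nucleolar RNA, had 22.8, 42.1 and 10.8 TPM with RECTAS and was listed at 0 in all 3 DMSO libraries. Gm49739, a processed pseudogene, had 8.63, 18.1 and 11.3 TPM with RECTAS and was likewise listed at 0 in the 3 DMSO libraries. For Gm49739, 99.4% of its 31-base words also occur in Nop56, and for Gm24727 79.8% occur in Gm23123, so the assignment of reads to either gene is uncertain and a fold is not given. The fall with the largest log2 difference, Gm28052, was listed at 0 in all 3 RECTAS libraries and had 2.00, 3.88 and 1.49 TPM with DMSO. It shares exons with Cmtr1, Gm28043 and Tbc1d22b on its own strand.

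A930004D18Rik had 15.96, 13.8 and 13.7 TPM with RECTAS, against 7.03, 7.36 and 7.17 TPM with DMSO. None of its 31-base words occurs elsewhere among the annotated transcripts, and the groups were far apart (log2 difference 0.92 ± 0.07, limma adjusted p = 0.00307). Nprl3 encodes a subunit of GATOR1, which restrains the growth kinase complex mTORC1 when amino acids are scarce. It had 86.9, 81.1 and 81.0 TPM with RECTAS, against 54.0, 51.4 and 48.2 TPM with DMSO. The rise of Nprl3 was 0.69 ± 0.05 (limma adjusted p = 0.00285), and its exons overlap those of Mpg on the opposite strand, which share 16.5% of its 31-base words. Ccl25, a chemokine that draws lymphocytes to the thymus and small intestine, had 24.2, 20.4 and 22.4 TPM with RECTAS, against 10.2, 11.8 and 14.6 TPM with DMSO. Its difference was 0.83 ± 0.12 (limma adjusted p = 0.0275) and it overlaps Elavl1 on the opposite strand.

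The remaining 4 of the 12 largest rises had differences of 0.63 to 0.82. Uvssa, a factor of transcription-coupled DNA repair, was at 0.72, and Tbc1d32, a gene of ciliary signalling, was at 0.63. The antisense transcript 0610040B10Rik, which overlaps Zdhhc4, was at 0.82, and the long intergenic RNA BC002059 was at 0.65.

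Among the falls, Hacd1 had the highest expression of the 12 largest. It encodes a dehydratase of very long chain fatty acid elongation and lies at chromosome 2, 13850282 to 14056135, on the minus strand. It had 68.7, 74.6 and 76.7 TPM with RECTAS, against 127, 133 and 130 TPM with DMSO. With means of 73.3 ± 4.13 TPM and 130.2 ± 3.005 TPM in RECTAS and DMSO libraries (SD, n = 3 each), Hacd1 fell to a ratio of 0.563 (log2 difference -0.82 ± 0.05, limma adjusted p = 0.00159). The pseudogene Gm11451, which holds 23.1% of the 31-base words of Hacd1, was also called lower, at -0.60.

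Alkbh3, which removes alkyl groups from DNA and RNA, had 30.3, 30.1 and 32.0 TPM with RECTAS, against 53.4, 52.0 and 52.5 TPM with DMSO (difference -0.75 ± 0.04, limma adjusted p = 0.00159). Xkr5, of the XK-related membrane protein family, had 9.87, 10.1 and 10.1 TPM with RECTAS, against 17.5, 17.2 and 17.4 TPM with DMSO (difference -0.74 ± 0.05, limma adjusted p = 0.00165). The spread within each group of Xkr5 was far smaller than the gap. Rsph3a and Rsph3b, 2 copies of a gene for the radial spokes of motile cilia, fell together at -0.83 and -0.79, and 59.4% of the 31-base words of Rsph3a also occur in Rsph3b. Rsph3a had 28.02, 25.5 and 22.7 TPM with RECTAS, against 42.03, 47.3 and 47.7 TPM with DMSO.

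Mtrex encodes the RNA helicase that feeds nuclear RNAs to the exosome. It had 17.1, 13.6 and 15.7 TPM with RECTAS, against 28.6, 26.8 and 25.5 TPM with DMSO, and fell by 0.77 ± 0.09 (limma adjusted p = 0.0123). Stxbp3, a regulator of vesicle fusion, was at -0.74, and Cmc4, a mitochondrial protein whose transcripts overlap those of Mtcp1, was at -0.80. Gm20431, at -0.95, shares 98.9% of its 31-base words with other transcripts, chiefly Ube2v1.

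**Figure D2:**
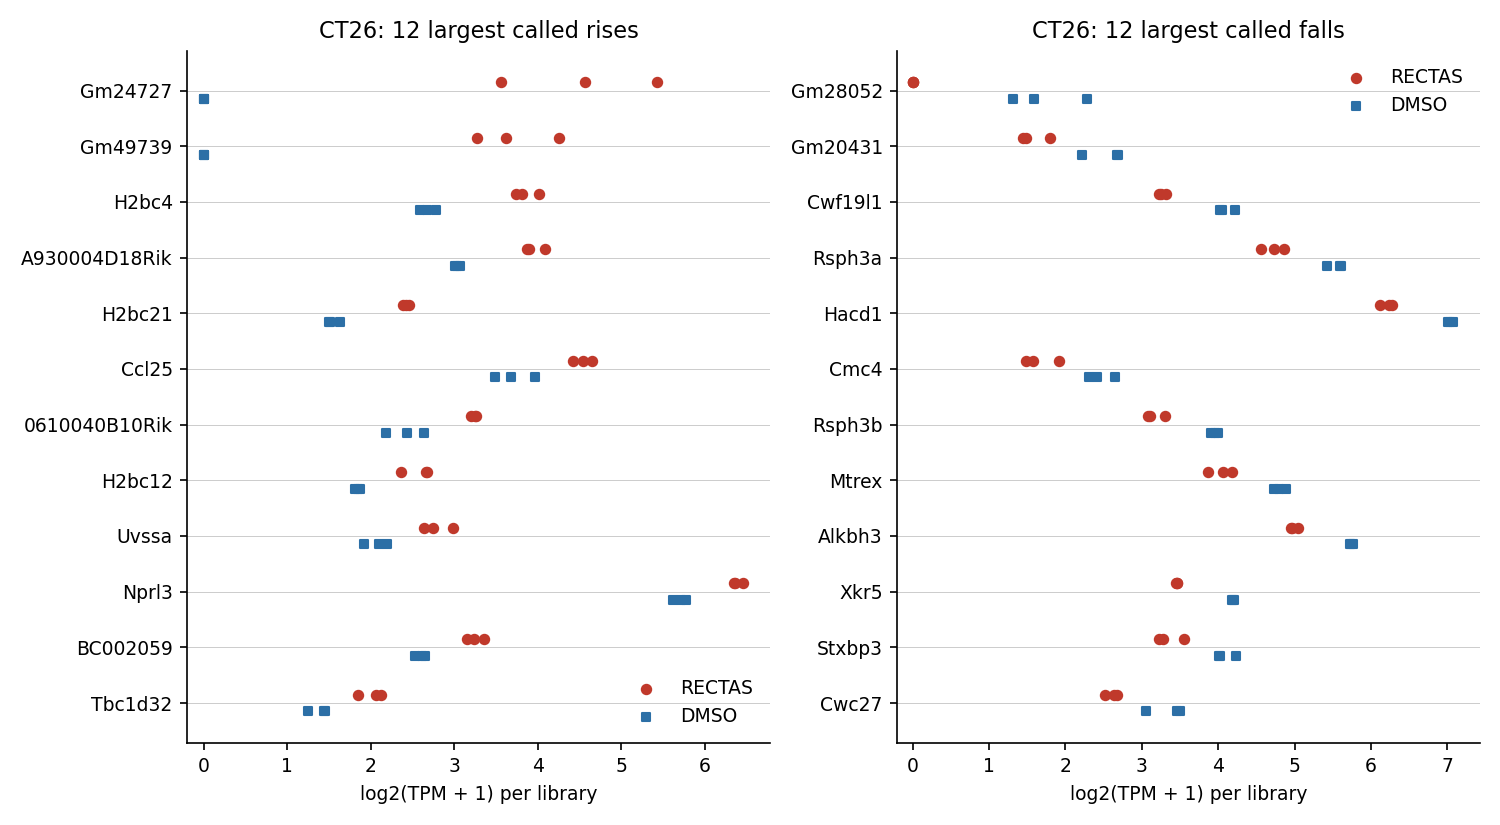
Value in each library on log2(TPM + 1) (x axis) of the 12 largest called rises (left) and the 12 largest called falls (right), with RECTAS as red circles and DMSO as blue squares. The 24 genes were chosen among those whose 3 RECTAS values lie on one side of the 3 DMSO values. Gm24727 and Gm49739 are listed at 0 in DMSO and Gm28052 in RECTAS, so each passed the filter through the other group alone.

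The splicing machinery that RECTAS is described as acting on was examined next. Srsf6 had 217, 209 and 210 TPM with RECTAS, against 188, 181 and 186 TPM with DMSO. The groups did not overlap and the difference was 0.19 ± 0.03 (limma adjusted p = 0.0295), a ratio of 1.14. It was the 1 called member among 14 SR protein genes tested, of 15 in the list, and the median of the list was 0.14. Among all genes, 0.729% were called higher and 1.26% lower. At an unadjusted p under 0.05 in limma, 9 of the 14 passed, beside 22.01% of all genes. In 7 of the 14 the RECTAS values all lay above the DMSO values, and in 1, Srsf7, below, beside 15.0% and 12.5% of all genes. Values of members that did not pass were 0.37 for Srsf10 (limma adjusted p = 0.107), 0.22 for Srsf11 and 0.13 for Srsf4.

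None of the 11 CLK, SRPK and DYRK kinase genes tested passed limma's test, 4 did at an unadjusted p under 0.05, beside 22.01% of all genes, and their median was 0.04. Clk1 had 55.4, 36.9 and 43.9 TPM with RECTAS, against 33.7, 29.7 and 25.4 TPM with DMSO. The groups did not overlap, but the RECTAS values spread by 9.36 TPM (SD), and the difference of 0.59 ± 0.15 had a limma adjusted p of 0.105. Clk4 had 32.5, 27.5 and 32.1 TPM with RECTAS, against 25.6, 23.8 and 20.9 TPM with DMSO (0.38 ± 0.09, limma adjusted p = 0.0904). Clk2, at 0.04, and Clk3, at -0.02, had overlapping groups. The first RECTAS library held the highest value of both Clk1 and Clk4. Srpk2 was at -0.20 with groups that did not overlap (limma adjusted p = 0.105).

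Changes in other splicing factors went both ways. Among 50 core spliceosome genes, 1 rose and 2 fell, beside 0.729% and 1.26% of all genes, with a median of -0.01. At an unadjusted p under 0.05 in limma, 9 of them passed, beside 22.01% of all genes. Ddx46, a helicase of the U2 particle, had 69.9, 57.1 and 61.0 TPM with RECTAS, against 45.1, 44.6 and 41.2 TPM with DMSO (0.51 ± 0.08, limma adjusted p = 0.0279). U2af2, which binds the pyrimidine tract before the splice acceptor, had 246, 244 and 242 TPM with RECTAS, against 270, 280 and 274 TPM with DMSO (-0.17 ± 0.03, limma adjusted p = 0.0308). Snrpa1, of the U2 particle, fell by 0.23 (limma adjusted p = 0.031).

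Among the 18 LUC7-like and CWC factors tested, 1 rose and 2 fell, beside 0.729% and 1.26% of all genes, with a median of 0.03. At an unadjusted p under 0.05 in limma, 7 of them passed, beside 22.01% of all genes. Luc7l, which joins the U1 particle, had 81.0, 75.2 and 81.1 TPM with RECTAS, against 63.8, 63.8 and 63.6 TPM with DMSO (0.31 ± 0.04, limma adjusted p = 0.0188). The DMSO libraries differed by less than 1 TPM. Cwf19l1, the mammalian relative of a fission yeast splicing factor, had 8.38, 8.56 and 9.01 TPM with RECTAS, against 15.3, 15.6 and 17.6 TPM with DMSO (-0.83 ± 0.07, limma adjusted p = 0.00411). Cwc27, a cyclophilin-type spliceosome protein, was at -0.73 (limma adjusted p = 0.0391) and overlaps Srek1ip1 on the opposite strand. Dnajc8, a J-domain protein of spliceosomes, had 98.3, 100.9 and 98.6 TPM with RECTAS, against 137, 139 and 141 TPM with DMSO, and fell by 0.48 ± 0.03 (limma adjusted p = 0.00159). None of the 26 hnRNP genes and none of the 16 nonsense-mediated decay factors passed, with medians of 0.07 and 0.05 and with 6 and 2 genes at an unadjusted p under 0.05 in limma, beside 22.01% of all genes. Hnrnph1 was at 0.34 (limma adjusted p = 0.141) and Upf3b at 0.39 (limma adjusted p = 0.152).

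**Figure D3:**
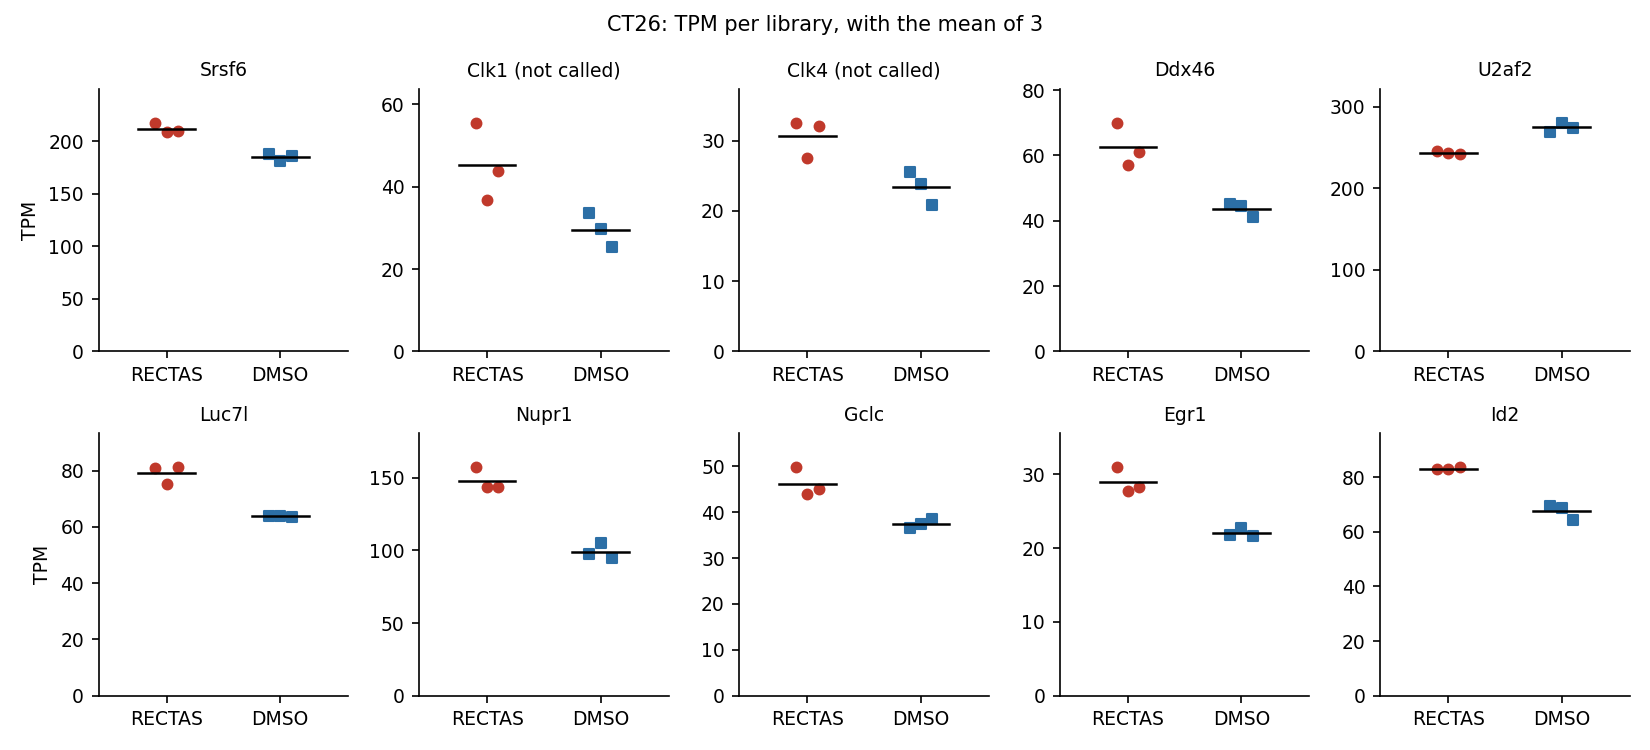
TPM in each of the 3 RECTAS libraries (red circles) and the 3 DMSO libraries (blue squares) for 10 splicing, stress and growth genes, with the mean of each group as a black line and each axis starting at 0. The panels were picked, and their groups do not overlap, which holds for every called gene. Among all genes, RECTAS values lay above all DMSO values in 15.0% and below them in 12.5%. Clk1, at 36.9 to 55.4 TPM with RECTAS, and Clk4 did not pass the test. Clk2 and Clk3, whose groups overlap, are not shown.

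Nupr1 led the stress genes. It encodes a small stress-induced chromatin protein that is a target of the transcription factor ATF4. It had 157, 143 and 144 TPM with RECTAS, against 97.8, 105 and 94.7 TPM with DMSO, and no RECTAS library came near the DMSO range. The ratio was 1.49 and the difference 0.57 ± 0.05 (limma adjusted p = 0.00518). It was the 1 called gene of 22 in the ATF4 list, whose median was 0.10, beside 0.729% of all genes called higher and 1.26% lower. The RECTAS values of 11 of the 22 lay above all DMSO values, beside 15.0% of all genes. At an unadjusted p under 0.05 in limma, 12 of the 22 passed, beside 22.01% of all genes. Trib3 was at 0.36 (limma adjusted p = 0.063), Slc7a11 at 0.43 (limma adjusted p = 0.106) and Atf3 at -0.33 (limma adjusted p = 0.149). Atf4 itself was at 0.08.

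The promoter of Nupr1 (chr7:126625421-126625720, minus strand, RefSeq table for GRCm38.p6, same window) is printed because ATF4 acts through a composite C/EBP-ATF element, TGATGNAAN, of which it holds 1 match on the opposite strand, in capitals.
Nupr1 promoter: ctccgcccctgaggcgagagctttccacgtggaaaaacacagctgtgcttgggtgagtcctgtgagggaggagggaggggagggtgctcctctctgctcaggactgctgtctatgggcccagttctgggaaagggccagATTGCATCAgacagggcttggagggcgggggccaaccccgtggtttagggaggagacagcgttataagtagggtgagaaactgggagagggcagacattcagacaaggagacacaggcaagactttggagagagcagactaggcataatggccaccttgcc
The match starts 111 bases before the start site. The motif occurs, on either strand, in 3.95% of all 32851 promoters.

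Of 19 NRF2 target genes, 1 rose and 0 fell, beside 0.729% and 1.26% of all genes, with a median of 0.11. At an unadjusted p under 0.05 in limma, 11 of them passed, beside 22.01% of all genes. The RECTAS values lay above all DMSO values in 10 and below them in 2, beside 15.0% and 12.5% of all genes. Gclc, the catalytic subunit of the rate-limiting enzyme of glutathione synthesis, had 49.8, 43.9 and 45.0 TPM with RECTAS, against 36.7, 37.4 and 38.6 TPM with DMSO (0.29 ± 0.05, limma adjusted p = 0.0482). Sqstm1 was at 0.15 (limma adjusted p = 0.0527), Hmox1 at 0.22 and Txnrd1 at 0.17 (limma adjusted p = 0.063 and 0.0674), each with groups that did not overlap. Aldh3a1, an aldehyde dehydrogenase, had 38.3, 39.1 and 37.1 TPM with RECTAS, against 28.7, 29.8 and 31.1 TPM with DMSO (0.34 ± 0.04, limma adjusted p = 0.0208), and was the 1 called gene of the 4 aryl hydrocarbon receptor targets tested. No gene passed among 19 p53 targets (median 0.04), 20 unfolded protein response genes (0.01), 17 heat shock genes (-0.01) or 25 cholesterol genes (-0.03). At an unadjusted p under 0.05 in limma, 5, 1, 4 and 8 genes of these lists passed, beside 22.01% of all genes. Cdkn1a was at -0.10 and Mdm2 at 0.26 (limma adjusted p = 0.144 and 0.162). In the cholesterol list, Fdps was at -0.19 (limma adjusted p = 0.0546) and Mvd at -0.25 (limma adjusted p = 0.0628).

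Genes downstream of growth factor signalling changed in small steps and in opposite directions. Egr1, an immediate early transcription factor, had 30.9, 27.7 and 28.3 TPM with RECTAS, against 21.8, 22.7 and 21.6 TPM with DMSO (0.38 ± 0.05, limma adjusted p = 0.0248). Jun had 86.6, 84.6 and 84.7 TPM with RECTAS, against 94.7, 100.4 and 96.1 TPM with DMSO (-0.18 ± 0.03, limma adjusted p = 0.0457). These were the 2 called of 22 immediate early genes, whose median was -0.02, beside 0.729% of all genes called higher and 1.26% lower. At an unadjusted p under 0.05 in limma, 10 of the 22 passed, beside 22.01% of all genes. Of 19 genes of MAPK output and ERK feedback, 2 fell and 0 rose, with a median of -0.01, and 10 had an unadjusted p under 0.05 in limma. The EGF receptor ligand gene Hbegf had 80.3, 78.5 and 78.7 TPM with RECTAS, against 92.6, 93.3 and 90.5 TPM with DMSO (-0.22 ± 0.03, limma adjusted p = 0.0233). The ERK phosphatase gene Dusp5 fell by 0.24 (limma adjusted p = 0.0362), and Ccnd1 was at -0.12 (limma adjusted p = 0.0679).

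Of 19 TGF-beta and YAP target genes, 2 rose and 0 fell, beside 0.729% and 1.26% of all genes, with a median of 0.11. At an unadjusted p under 0.05 in limma, 9 of the 19 passed, beside 22.01% of all genes. Both were inhibitors of DNA binding, which block basic helix-loop-helix factors. Id2 had 82.9, 82.8 and 83.5 TPM with RECTAS, against 69.5, 68.6 and 64.2 TPM with DMSO (0.30 ± 0.04, limma adjusted p = 0.0201), and Id3 rose by 0.21 (limma adjusted p = 0.0497). Id1 was at 0.19 with groups that did not overlap (limma adjusted p = 0.0984). Snai1, a transcription factor of the mesenchymal list, had 29.7, 33.4 and 31.2 TPM with RECTAS, against 25.8, 25.8 and 23.8 TPM with DMSO (0.31 ± 0.06, limma adjusted p = 0.0482). It was 1 called of 12 mesenchymal genes, and Snai2 was at 0.49 (limma adjusted p = 0.0773). No gene passed among 10 Wnt targets (median -0.01), and 3 did at an unadjusted p under 0.05 in limma, beside 22.01% of all genes.

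Of the immune lists, the chemokine list held 1 called gene, Ccl25, among 6 tested, and the others held none. Among all genes, 0.729% were called higher and 1.26% lower. None of 17 genes of MHC class I presentation passed (median -0.04, range -0.18 to 0.15), and none of 18 interferon-stimulated genes did (median 0.01), with Isg15 at -0.18 and Oasl1 at -0.34 (limma adjusted p = 0.12 and 0.146). None of 10 immune checkpoint ligand genes passed (median 0.02), with Cd80 at 0.34 (limma adjusted p = 0.095) and Pdcd1lg2 at -0.19 (limma adjusted p = 0.214). None of 16 NF-kB genes passed (median 0.01), with Traf1 at -0.27 (limma adjusted p = 0.0806). At an unadjusted p under 0.05 in limma, 1 class I gene passed, Tapbp at -0.12, with 3 interferon-stimulated genes, 3 checkpoint ligand genes and 6 NF-kB genes, beside 22.01% of all genes.

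No member of the G1/S and G2/M lists was called. None of 28 G1/S genes (median 0.00) and none of 28 G2/M genes (median 0.04) passed, with 3 and 9 at an unadjusted p under 0.05 in limma, beside 22.01% of all genes. Cenpf, a kinetochore gene, had 22.6, 18.04 and 18.2 TPM with RECTAS, against 11.9, 13.2 and 8.54 TPM with DMSO, and the difference of 0.77 ± 0.16 had a limma adjusted p of 0.0611. Cenpe was at 0.63 (limma adjusted p = 0.101) and Mki67 at 0.57 (limma adjusted p = 0.14), while Plk1 was at -0.13 (limma adjusted p = 0.0686). Cenpf, Cenpe and Mki67 were chosen from 28 genes of which 20 were above 0, beside 57.8% of all genes, and their first RECTAS library was the one with the highest level of genes of low GC content. Slbp, which binds the histone stem-loop, was at 0.23 (limma adjusted p = 0.0878).

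The lists of ribosome biogenesis, ribosomal protein and respiratory chain genes held 3 called members in all, beside 0.729% of all genes called higher and 1.26% lower. At an unadjusted p under 0.05 in limma, 5 ribosome biogenesis genes and 10 nuclear genes of complexes I and II passed, beside 22.01% of all genes. Of 26 ribosome biogenesis genes, 0 rose and 1 fell: Polr1b, a large subunit of RNA polymerase I, had 21.5, 23.0 and 23.2 TPM with RECTAS, against 27.7, 27.7 and 26.4 TPM with DMSO (-0.26 ± 0.05, limma adjusted p = 0.0457). None of 47 cytosolic ribosomal protein genes passed, with a median of -0.06, 9 above 0 and 8 at an unadjusted p under 0.05 in limma, beside 57.8% and 22.01% of all genes. Among 31 nuclear genes of complexes I and II, 1 rose and 1 fell, with a median of -0.07. Sdhaf4, an assembly factor of complex II, had 33.2, 28.6 and 30.7 TPM with RECTAS, against 21.9, 21.6 and 20.3 TPM with DMSO (0.51 ± 0.06, limma adjusted p = 0.0162). Ndufs3, a core subunit of complex I, had 94.7, 98.3 and 100.1 TPM with RECTAS, against 120.3, 119.7 and 119.3 TPM with DMSO (-0.29 ± 0.03, limma adjusted p = 0.0109). None of 13 mitochondrially encoded mRNAs passed (median 0.12), and none of 22 hypoxia and glycolysis genes did (median -0.02), with 7 and 4 at an unadjusted p under 0.05 in limma, beside 22.01% of all genes.

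Mitochondrially encoded transcripts took 5.57% ± 0.178 of all TPM with RECTAS and 5.01% ± 0.216 with DMSO (SD, n = 3 each). The share was 5.77%, 5.42% and 5.54% in the RECTAS libraries, against 5.11%, 5.16% and 4.76% in the DMSO libraries, without overlap. The exact two-sided permutation test gave p = 0.1, the smallest that 3 libraries against 3 allow.

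**Figure D4:**
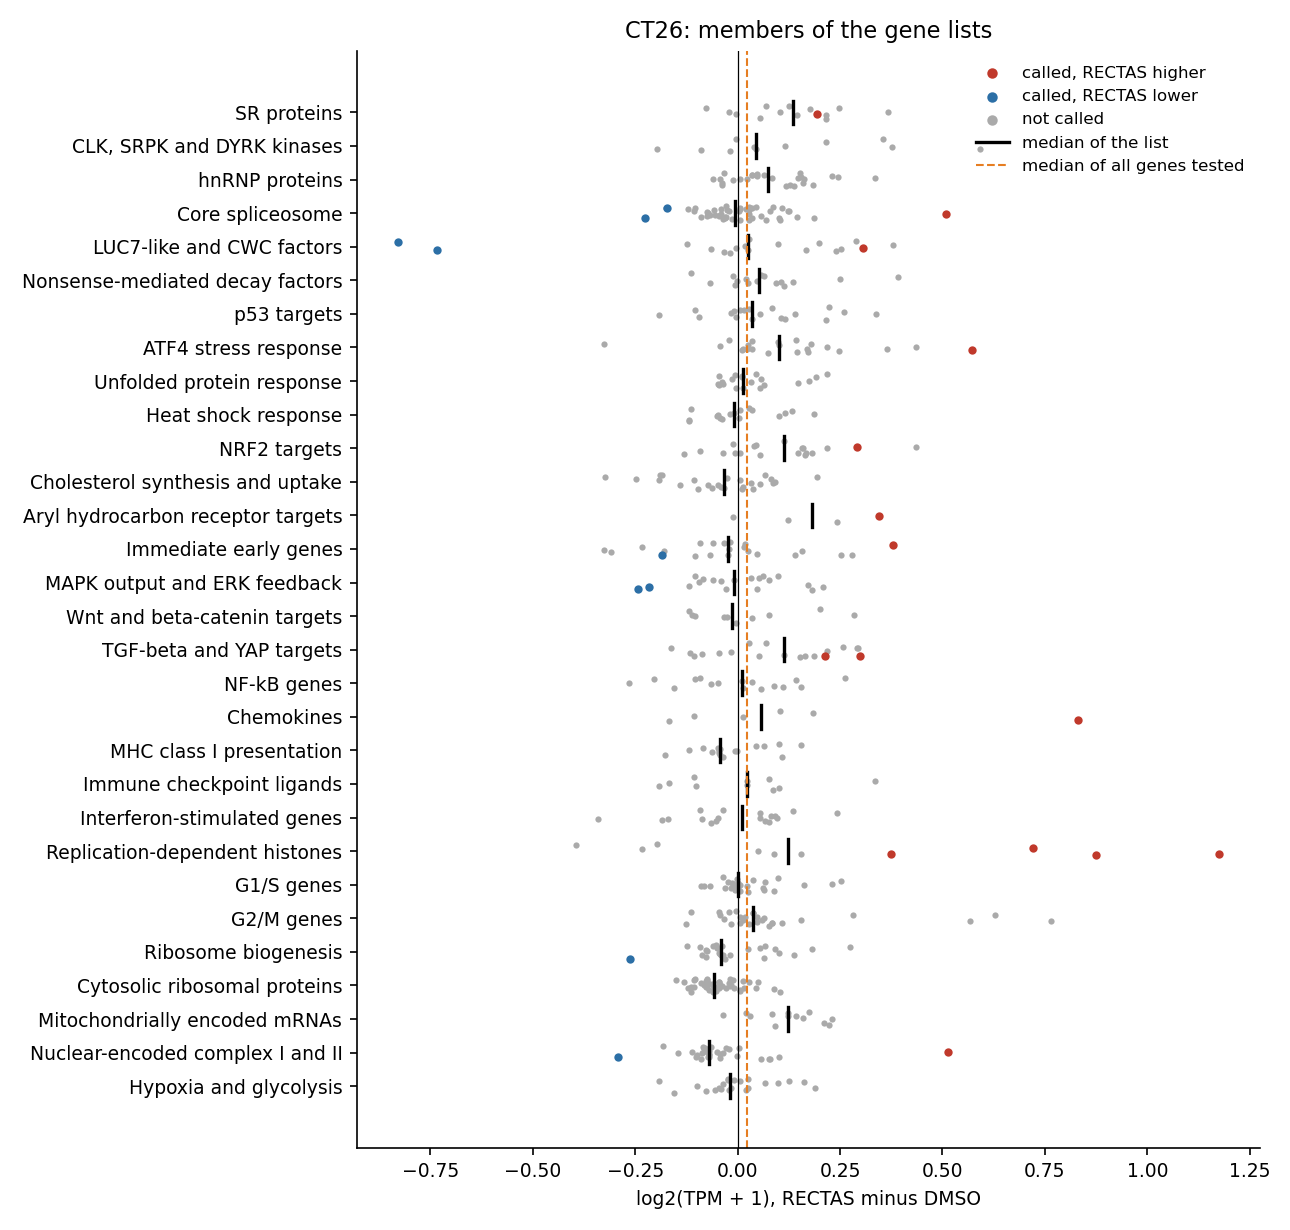
Difference between RECTAS and DMSO on log2(TPM + 1) (x axis) for the tested members of the 30 gene lists (y axis), 1 point per gene, with called genes in red (RECTAS higher) or blue (RECTAS lower). Black bars mark list medians and the dashed line the median of all genes, 0.02. Most lists hold 0 to 2 called members, and the histone list holds 4. The lists were chosen with earlier results of these data known.

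Over the 30 lists together, 15 genes rose and 9 fell, beside 0.729% and 1.26% of all genes. The lists held from 4 (aryl hydrocarbon receptor targets) to 50 (core spliceosome) tested genes each, and some genes are in several lists. Without 1 library these counts ranged from 3 to 17 and from 1 to 4; 3 rose without the third RECTAS library or the first or second DMSO library, 5 without the first RECTAS library and 6 without the third DMSO library. The falls were 4 without the second RECTAS library, 3 without the third DMSO library, 2 without the first or the third RECTAS library and 1 without the first or second DMSO library.

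The other lines, which share no library with CT26, were used to see where CT26 differed. Of the 150 genes that fell in CT26, 39 of the 140 tested in MC38, the other colon line, were called lower there, where 0.878% of genes were, and 136 of the 140 had the same sign. In the melanoma line B16, where 3.40% of genes were called lower, 58 of 137 were. In the lung carcinoma line LLC, where 0.152% of genes were called lower, 15 of 145 were. The counts were 57 of 127 in the lymphoma line EG7, 58 of 142 in the pancreatic carcinoma line Pan02 and 55 of 137 in the leukaemia line WEHI3, where 1.85%, 1.10% and 1.53% of genes were called lower. No fall in CT26 was called higher in another line.

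Of the 87 rises in CT26, 20 of 81 tested in MC38 were called higher there, against 0.410% of all genes, and 25 of 83 in Pan02, against 0.587%. The counts were 26 of 74 in EG7 (1.42% of all genes called higher), 23 of 75 in WEHI3 (0.551%), 16 of 81 in B16 (0.703%) and 5 of 82 in LLC (0.0422%). In B16, 3 of the CT26 rises were called lower: Id2 at -0.19, Mospd2 at -0.56 and Adgrl1 at -0.45, chosen after their values were seen. Of all calls in CT26, 44 rises and 55 falls were called in no other line, which does not show that they are particular to CT26, and 3 rises and 8 falls were called in all 6 others. The 11 shared genes are these: H2bc4, Luc7l and Sdhaf4 rose, and Cwf19l1, Xkr5, Alkbh3, Supt3, Ndufs3, Riox2, Atpsckmt and Dnajc8 fell. Of these, Riox2, a ribosomal oxygenase, had 10.8, 10.5 and 11.1 TPM with RECTAS, against 15.9, 16.2 and 16.3 TPM with DMSO in CT26. Supt3, of the SAGA coactivator, was at -0.54 and Atpsckmt, a methyltransferase of ATP synthase, at -0.37.

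The test of the difference itself, over 8775 genes with at least 1 TPM in every line, called 28 genes (0.319%) in CT26 minus the mean of the other 6 lines, 15 with a higher and 13 with a lower difference in CT26. The 8 with the smallest adjusted p were Hacd1, Fam136a, Mtrex, Mospd2, Vps41, H2bc21, Gusb and Nupr1, and all 8 stayed called in every alternative fit that could be run for them. The count of 28 depended on the lines: without LLC, 195 were higher and 68 lower, without Pan02 30 and 23, and without B16 7 and 5. It also depended on CT26 libraries, with 5 higher and 9 lower without the first RECTAS library, 58 and 25 without the second, 10 and 7 without the third, 13 and 8 without the second DMSO library and 7 and 8 without the third.

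Nupr1 was at 0.57 in CT26, against a mean of -0.01 in the other lines, where it ranged from -0.40 in B16 to 0.21 in Pan02; the difference was 0.58 ± 0.10 (SE; limma adjusted p = 0.00459). Mospd2, an endoplasmic reticulum protein of membrane contact sites, had 6.63, 5.94 and 5.87 TPM with RECTAS in CT26, against 3.62, 3.80 and 3.50 TPM with DMSO. It rose by 0.62 in CT26, against a mean of -0.13 in the other lines (difference 0.75 ± 0.12, limma adjusted p = 0.00147). B16 was at -0.56, and the rest lay close to 0, from -0.07 in LLC to -0.01 in WEHI3. H2bc21 was at 0.87 in CT26, against a mean of 0.48 elsewhere with every line above 0 and EG7, at 0.92, above CT26 (difference 0.39 ± 0.07, limma adjusted p = 0.00313).

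Hacd1 was at -0.82 in CT26, against a mean of -0.41 elsewhere (difference -0.42 ± 0.05, limma adjusted p = 8.11e-05). In MC38 it was also at -0.82. Mtrex was at -0.77 in CT26, against a mean of -0.26 elsewhere (difference -0.51 ± 0.08, limma adjusted p = 0.00111), and WEHI3 was at -0.80. Vps41, which tethers vesicles to lysosomes, was at 0.03 in CT26 with overlapping groups, against a mean of -0.30 elsewhere (difference 0.33 ± 0.05, limma adjusted p = 0.00187). Gusb, the lysosomal beta-glucuronidase, had 29.3, 28.3 and 28.5 TPM with RECTAS in CT26, against 36.9, 36.6 and 34.5 TPM with DMSO. It was at -0.32 in CT26, against -0.10 elsewhere (difference -0.22 ± 0.04, limma adjusted p = 0.00459). Fam136a, a mitochondrial protein, was at -0.23 in CT26, against -0.03 elsewhere (difference -0.20 ± 0.03, limma adjusted p = 0.00111).

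Against MC38 alone, 13 genes (0.148%) differed. Among genes named above these were Polr1b (-0.32, limma adjusted p = 0.0131), Gusb (-0.27), Mtrex (-0.53), Vps41 (0.35) and Fam136a (-0.19), each of which lost this call without at least 1 of the CT26 libraries: Mtrex without any except the first RECTAS and the third DMSO library, Polr1b without the second DMSO library, Gusb without the third RECTAS or second DMSO library, Vps41 without the first or the third RECTAS or the second or the third DMSO library and Fam136a without any except the first DMSO library. Fam136a was called against MC38 in 6 of 15 alternative fits, and also lost the call under the replicate block, under median-ratio scaling and without EG7 or WEHI3.

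**Figure D5:**
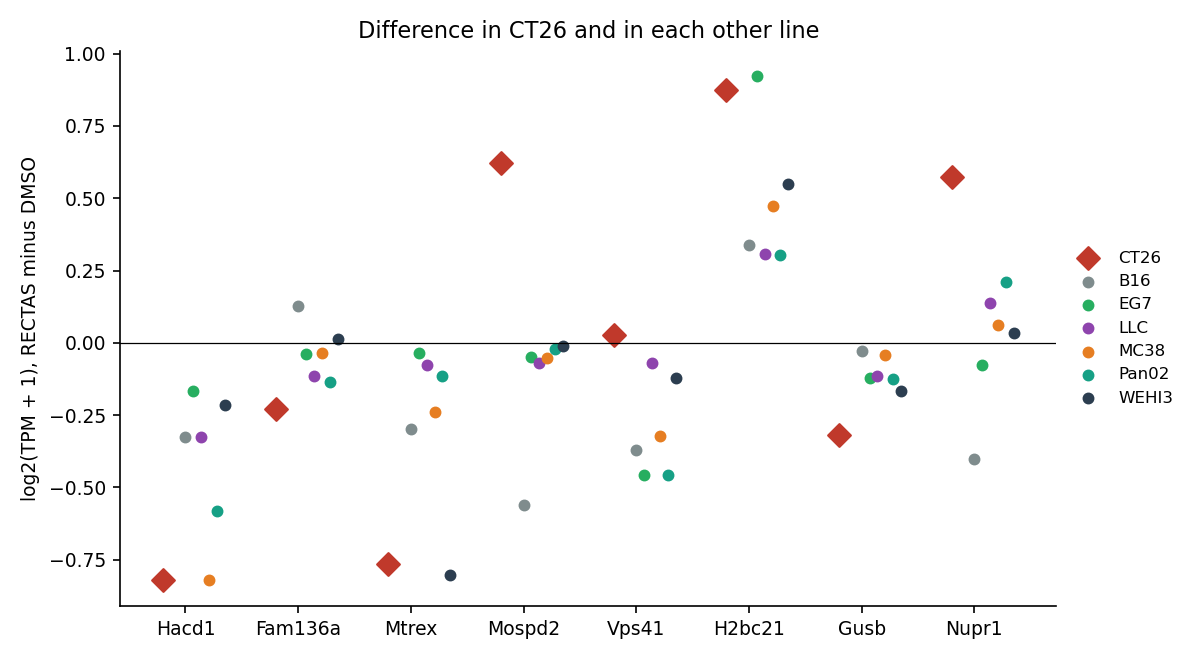
Difference between RECTAS and DMSO on log2(TPM + 1) (y axis) in CT26 (red diamonds) and in each of the 6 other lines (coloured points) for the 8 genes with the smallest adjusted p in CT26 minus the other lines. Mospd2, at 0.62, and Nupr1, at 0.57, are above every other line in CT26, while for Hacd1 MC38 and for Mtrex WEHI3 lie level with CT26.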

How the data were processed

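Polyadenylated RNA of CT26 cells was sequenced after the TruSeq stranded mRNA kit, per the labels' protocols. The deposited values are TPM per gene, 1 file per library; HISAT2 2.2.0, RSEM 1.3.0 and GRCm38 appear in the submitters' processing notes without a role, and the sources used here give no annotation, strand setting or filter. The values were used without scaling, since the TPM of each library have the same sum. IDs matched GENCODE M21 for 55141 of 55401 genes (99.5%), and transcripts sharing 31-base words were counted there.

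The fit of RECTAS minus DMSO used limma 3.58.1 (R 4.3.3) with log2(TPM + 1) as response (moderated variances, intensity trend, two-sided, 6 libraries, mean of at least 1 TPM). CT26 minus the other lines used all 42 libraries and 14 group means. Adjusted p under 0.05 was called. Tested on simulated data for the CT26 comparison (11938 genes, 5 runs), the fit called 70.4% of genes changed by 0.5 log2 and 92.8% of those changed by 1. The simulated noise was independent between genes, whereas these libraries deviated with GC content across genes. These shares may therefore not hold for the real data. 

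Named genes were the 12 largest called rises and falls with groups that do not overlap, up to 4 members per list by p, Srsf6, the Clk genes, the genes shared by all lines and the 8 smallest adjusted p between lines; a few further members are given as examples chosen after their values were seen, and some named genes are not reported here. Members and lists were chosen with earlier results of these data known. Lists were described by counts and medians. The alternatives were another pseudocount, filters, scalings, no trend, a replicate block, a residual covariate, all libraries in one fit, each library left out and, added after seeing the data, removal of the trend on GC content and length.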

Additional observations from a re-analysis of the deposited data

Results flagged for a closer look

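The difference between RECTAS and DMSO in CT26 differed from the mean of the other 6 lines for 9 named genes in limma's test of that difference (adjusted p under 0.05, 8775 genes tested). On the log2(TPM + 1) scale the difference in CT26 minus that mean was 0.75 for Mospd2, 0.58 for Nupr1, 0.39 for H2bc21 and 0.33 for Vps41. It was -0.51 for Mtrex, -0.42 for Hacd1, -0.24 for Polr1b, -0.22 for Gusb and -0.20 for Fam136a. Polr1b lost this call without the first RECTAS library of CT26 or without B16.

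Against MC38 alone, the same test called 5 of these genes. The difference in CT26 minus that in MC38 was 0.35 for Vps41, -0.53 for Mtrex, -0.32 for Polr1b, -0.27 for Gusb and -0.19 for Fam136a. Over 15 alternative fits each, the call against MC38 was kept in 14 for Polr1b, 13 for Gusb, 11 for Mtrex, 11 for Vps41 and 6 for Fam136a.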

How the results depend on the processing

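Genes called higher and lower in CT26 (87 and 150) numbered 29 and 52 with no filter, 31 and 48 with no intensity trend, 933 and 480 with the first residual component as a covariate, 554 and 494 with all 42 libraries in one fit and 226 and 334 after removing the trend on GC content and length; quantile normalization gave 226 lower. The covariate comes from the same residuals, so it understates their spread by construction, and it moved the share of lower calls to 34.0% from 63.3%; all 42 libraries moved it to 47.1%. Without 1 library the counts ranged from 10 to 143 and from 15 to 107. In the lists (15 and 9) the counts were 6 and 3 with no filter, 8 and 2 with no trend, 83 and 37 with the covariate, 45 and 31 with all 42 libraries and 29 and 22 after removing that trend, and 3 to 17 and 1 to 4 without 1 library. Between CT26 and the other lines (15 and 13), a filter at 5 TPM gave 2 higher; without 1 library the counts were 5 to 58 and 7 to 25. Without LLC they were 195 and 68, without Pan02 30 and 23, without B16 7 and 5. Against MC38 (6 and 7) they were 1 to 8 and 1 to 8 without 1 library, 11 and 11 without LLC, and 3 higher without WEHI3. The mitochondrial share differed by 0.439 to 0.641 percentage points without 1 library. The causes were not tested.

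Same-numbered libraries deviated together only weakly (correlations 0.040, 0.069 and 0.065, and 3 of 6 libraries correlated best with their own number). With 3 libraries in each group, this cannot settle whether the numbers pair them. The main fit used no pairing. With a replicate block, 12 genes were higher and 17 lower, 3 and 1 in the lists, and 46 higher between lines. No value of the 158 named genes reversed a call under 16 alternatives. Of 2511 values, 258 lost a call, 142 gained one, and 16 uncalled values changed sign. Only values of the 50 called genes could lose a call. Of these 50 genes, 12 stayed called under every alternative that could be run. Among the 24 largest rises and falls, 10 did. Depth is unknown, so no counting error could be given.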

Other observations

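The gene families below were chosen after their values had been seen and are given as counts over all tested members, without a test. Over all genes, 0.729% rose, 1.26% fell, 57.8% were above 0 and the median was 0.02. Among 15 small nucleolar RNA host genes, 3 rose and 0 fell, with a median of 0.12. Snhg1 had 218, 202.5 and 222 TPM with RECTAS, against 163, 164 and 152 TPM with DMSO. Gas5 had 229, 198 and 215 TPM with RECTAS, against 171, 165 and 147 TPM with DMSO, and Snhg17 was at 0.42. Their spliced transcripts are known as natural substrates of nonsense-mediated decay. Of 6 export genes named Thoc, Thoc1, at 0.33, and Thoc7, at 0.18, rose and 0 fell. Other genes of the TREX export complex were not counted with them.

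Of 49 RNA helicase genes, those named Ddx or Dhx with Mtrex added, 1 rose and 5 fell, with a median of -0.02. Mtrex, at -0.77, is among the 5 falls. Ddx39b, which unwinds RNA in splicing and export, had 188, 190 and 192 TPM with RECTAS, against 243, 241 and 239 TPM with DMSO, a difference of -0.34, and its close relative Ddx39 was at -0.22. Among 11 telomere-associated genes, 0 rose and 4 fell, with a median of -0.12: Pot1a at -0.65, Ctc1 at -0.41, Stn1 at -0.23 and Pinx1 at -0.23. Pot1a had 5.45, 5.04 and 5.04 TPM with RECTAS, against 9.31, 8.50 and 8.26 TPM with DMSO. Among 9 matrix metalloproteinase and urokinase genes, 0 rose and 3 fell: Mmp10 at -0.47, Plau at -0.37 and Mmp3 at -0.17. Of 290 zinc finger genes named Zfp, 4 rose and 0 fell, 235 were above 0 and the median was 0.13. Of 75 mitochondrial ribosomal protein genes, 0 rose and 2 fell, Mrpl38 at -0.20 and Mrpl10 at -0.17, 64 were below 0 and the median was -0.07. Of 33 vacuolar protein sorting genes, 0 rose and 3 fell, with a median of 0.03: Vps50 at -0.61, Vps25 at -0.45 and Vps8 at -0.44.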
